A study of Mus musculus with 5 samples.

Results

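Methylation of the maternal and the paternal copy of the autosomes was compared within female mouse embryonic fibroblasts (MEFs), in the 3 control libraries of an enhanced reduced representation bisulphite sequencing (eRRBS) experiment. The cells came from E13.5 embryos of a cross labelled as 129/C57 dams with CAST sires, where the study's methods name the cells 129/CAST, so that every maternal autosome was *domesticus* and every paternal autosome *castaneus*. All libraries carried Xist-deltaA/+, with the deletion on the maternal X, and all cells had been transduced with a retrovirus and selected with puromycin. Controls were Setdb1+/+ with a Nonsilencing hairpin (n = 3), while Setdb1 depleted MEFs were Setdb1+/gt, heterozygous for a gene trap, with the shSetdb1 hairpin (n = 2), and were used here as further libraries of the same cross and, in the last comparison, as a group of their own. A position is 1 cytosine of a CpG on 1 strand, and it entered when both alleles had more than 20 calls in each of the 3 control libraries, on chromosomes 1 to 19. This left 66512 of the 1967457 autosomal positions called anywhere in the series, of 2007909 in all. The methylation level, % mC, is the share of calls at a position that were methylated. Because the dams were always *domesticus* and the sires *castaneus*, parent of origin and subspecies cannot be told apart in any value below. The labels do not say that the libraries came from separate embryos, so tests refer only to these 3 libraries. In the model of calls used below, the spread between them is in part pooled over positions or genes. A level in bulk DNA does not separate a mixture of cells from a mixture of states within cells.

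Genomic imprinting leaves a few autosomal regions methylated on the copy inherited from 1 parent only. The marks are laid down in the egg or the sperm, and they are kept through the wave of demethylation after fertilisation and then in all body cells, where they silence or release nearby genes according to parent. Methylation can also differ between the alleles of a hybrid because the strains differ in sequence, and such differences follow the strain and not the parent.

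Each control library held 10007286 to 10558931 maternal and 9844433 to 10253624 paternal CpG calls. The positions compared received 3568712 to 3687414 of them per allele and library, with a median of 50 to 52 calls per position. Of these positions 35863 lay within 1 kb of a gene start, 8757 in other exons, 12288 in introns and 9604 between genes, and 3613 lay in repeats. Just inside the coverage minimum, 10944 positions with a lowest depth of 21 to 25 calls averaged 38.6% mC on the maternal and 38.7% on the paternal allele, and just outside it 10349 positions with 16 to 20 calls averaged 42.6% and 42.5%. Of the fibroblast and other cell type markers listed, only the promoters of Fn1 (fibronectin) and Cdh1 (E-cadherin) were covered, at 0.0926% and 1.63% mC on the maternal allele, so the cell type could not be checked from promoter methylation.

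Reference sequences (mm10, plus strand) are given for stretches that the comparison turned on, with CpGs called between the alleles in the test below in capitals. The first pair lies at imprinted genes, the next pair in clusters of CpGs away from gene starts, and Ddx20 and Cables2 at gene starts where the less methylated allele was at or near 0. The last is a copy of the Cables2 stretch, whose own coverage was not examined. Snurf is shown at chr7:60005140-60005169, Peg13 at chr15:72809789-72809836, the stretch nearest Cript at chr17:87041736-87041849, the Igsf11 intron at chr16:38927703-38927803, the coding first exon of Ddx20 at chr3:105687261-105687319, that of Cables2 at chr2:180273191-180273250 and its copy in the pseudogene Gm6190 at chr12:88354476-88354535. A CpG in lower case may also have been measured on both alleles without being called. In the copy, capitals mark the CpGs that it shares with the capitals of Cables2.
Snurf promoter: gtCGCGCGgctccctaCGcatgCGtcccag
Peg13 promoter: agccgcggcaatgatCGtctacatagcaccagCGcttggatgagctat
Cript, intergenic: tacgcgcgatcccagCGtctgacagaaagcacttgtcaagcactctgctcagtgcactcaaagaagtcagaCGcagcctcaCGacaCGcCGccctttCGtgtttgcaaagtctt
Igsf11 intron: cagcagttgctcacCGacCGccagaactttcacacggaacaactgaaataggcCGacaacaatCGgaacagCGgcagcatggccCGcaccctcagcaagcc
Ddx20 first exon: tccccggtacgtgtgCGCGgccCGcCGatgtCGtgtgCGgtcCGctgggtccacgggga
Cables2 first exon: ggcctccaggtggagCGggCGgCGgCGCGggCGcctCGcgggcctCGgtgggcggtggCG
Gm6190, copy of the Cables2 stretch: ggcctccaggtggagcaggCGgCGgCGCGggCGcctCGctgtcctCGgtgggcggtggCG

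Across all positions the alleles had almost the same mean level. The maternal allele averaged 26.0% mC ± 0.238 and the paternal allele 26.0% ± 0.202 (SD, n = 3). The maternal minus paternal difference was 0.00641, 0.0710 and −0.00150 points in the 3 libraries, a mean of 0.0253 ± 0.0398 (p = 0.5, exact permutation of signs, two-sided). With 3 libraries this exact test has 8 sign patterns and cannot go below p = 0.25. Both alleles were under 20% mC at 66.0% of positions and both over 80% at 16.2%. The maternal allele was over 80% with the paternal under 20% at 57 positions, and the reverse was found at 11. Almost all positions were CpGs of the mm10 reference, which need not sample both subspecies alike.

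**Figure D1:**
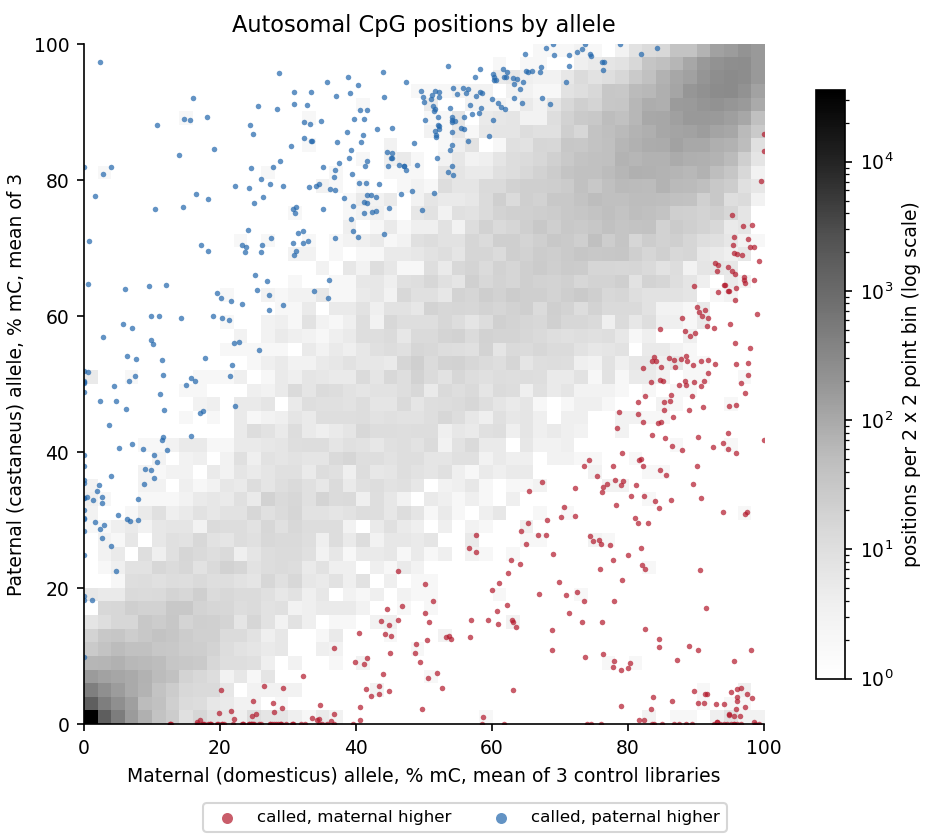
Each autosomal position by its mean % mC on the maternal (x axis) and the paternal allele (y axis) over the 3 control libraries, with grey for the number of positions per bin of 2 by 2 points and coloured points for the 701 positions called between alleles. Most positions lie at the low or the high end of the diagonal, and the corner of high maternal and low paternal methylation holds 57 positions against 11 in the opposite corner.

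Over all positions the alleles of a library resembled each other almost as much as the same allele did between libraries. Across the 66512 positions the levels of the alleles of a library correlated at r = 0.955 to 0.969, and those of the same allele in different libraries at r = 0.970 to 0.979. At the 5521 positions with a mean of 30 to 70% mC, the median absolute difference was 13.6 to 16.03 points between the alleles of a library and 10.7 to 12.9 points between libraries for the same allele. There the alleles of a library correlated at r = 0.0492 to 0.173, and the same allele in different libraries at r = 0.468 to 0.589. The range of 30 to 70% was set on the mean of both alleles, which favours positions where they differ. Both gaps are thus in part fixed by the choice. These are descriptions over positions that share libraries and depth.

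Split by CpG density, the mean allele difference stayed under 1 point in every class. At positions with 0 to 4 CpGs within 100 bp on either side, maternal minus paternal was −0.670, −0.542 and −0.750 points (mean −0.654 ± 0.105, SD, n = 3), on levels near 70% mC. With 10 to 14 CpGs it was 0.412, 0.519 and 0.410 points (mean 0.447 ± 0.0620), on levels of 29.6% and 29.2%. The paternal allele was thus higher in sparse surroundings and the maternal allele in surroundings of intermediate density, each in 3 of 3 libraries. Both tests were at the smallest p possible (p = 0.25, exact). In the larger class with 5 to 9 CpGs (16309 positions) the sign over all positions was mixed, at −0.222, 0.0405 and −0.238 (p = 0.5, exact), and a dependence on density itself was not tested. In the densest class, 20 or more CpGs, the difference was 0.00189 ± 0.0251. Within 1 kb of gene starts the maternal allele was higher by 0.0767 ± 0.0360 points (2.89% against 2.81%, higher in 3 of 3 libraries, exact p = 0.25), and exons, introns and intergenic positions differed by −0.0567 ± 0.0513, −0.0621 ± 0.0751 and 0.0198 ± 0.129.

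The depleted libraries, which had not defined these classes, shared the direction of the CpG density classes in which the controls had a common sign. On the 58940 positions also covered on both alleles in both depleted libraries, the differences there were −0.506 and −1.25 points with 0 to 4 CpGs, against a control mean of −0.597. With 10 to 14 CpGs they were 0.438 and 0.614, against 0.504. With 5 to 9 CpGs all 5 libraries were below 0 on these positions (controls −0.362, −0.112 and −0.262, depleted −0.253 and −0.176), and with 15 to 19 CpGs all 5 were above 0. Exons, with the paternal allele higher in 3 of 3 controls over all exon positions (exact p = 0.25), had no common sign in controls on these ones (−0.0677, 0.0413 and −0.121) and the opposite sign in both depleted libraries (0.107 and 0.134). Between genes the controls were also mixed (−0.182, 0.0145 and 0.182), and in repeats the depleted libraries were (−0.00648 and 0.245). By chromosome on the same positions, 11 of the 19 autosomes had the same sign in 3 of 3 controls, 7 of them with the maternal allele higher. Both depleted libraries shared that sign on 9 of these 11, and on 0 were both opposite. Chromosome 15, with the paternal allele higher, differed by −0.476, −0.353 and −0.388 points in controls, and chromosome 5, with the maternal allele higher, by 0.185, 0.222 and 0.354. The libraries shared the cross, so these are further measurements of it and not of another parent or strain.

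**Figure D2:**
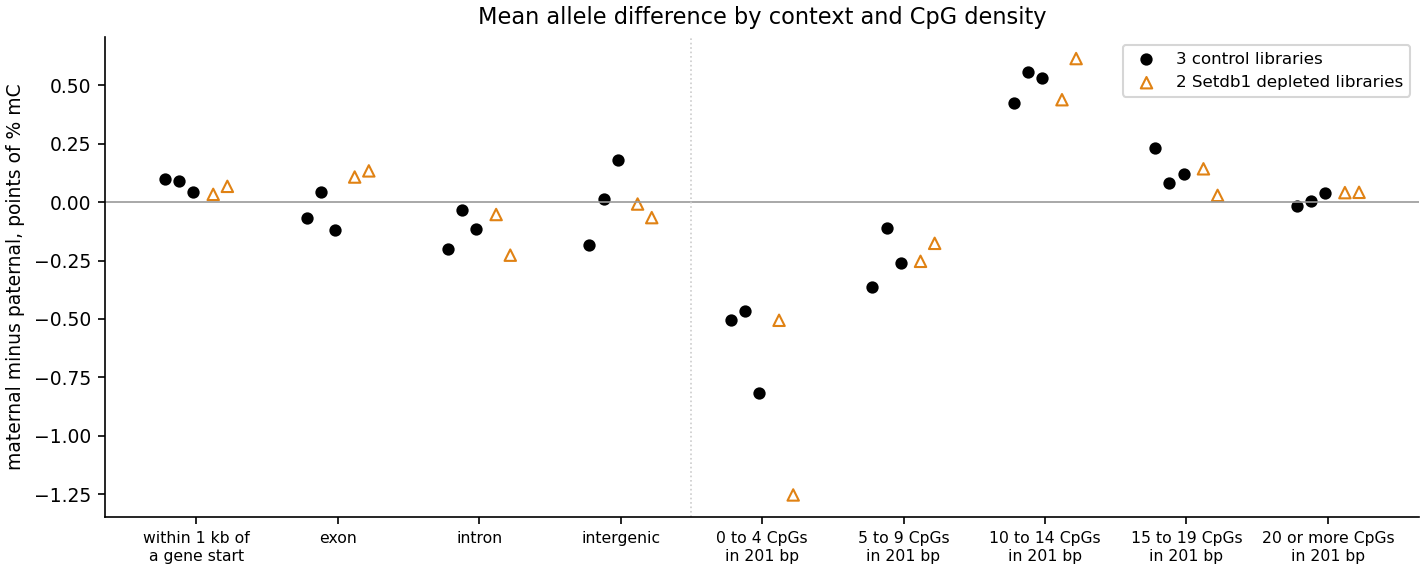
Mean maternal minus paternal % mC (points, y axis) by annotation and by the number of CpGs within 100 bp on either side (x axis), for the 58940 positions covered in all 5 libraries; black circles are the 3 control and open orange triangles the 2 Setdb1 depleted libraries. All 5 libraries lie under 0 with 0 to 4 CpGs and above 0 with 10 to 14 CpGs.

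Single positions with an allele difference were few. A quasi-binomial model of the calls, paired within library, with Benjamini-Hochberg adjustment over all positions, called 701 positions, or 1.05% of those tested, at an adjusted p under 0.05. The maternal allele was higher at 371 (0.558%) and the paternal at 330 (0.496%), and 679 of the 701 went in the same direction in 3 of 3 libraries. Their median difference was 38.1 points and the smallest was 9.92. The called share was 0.388% within 1 kb of gene starts, 1.29% in exons, 1.64% in introns, 2.57% between genes and 2.63% in repeats. It was 7.03% where the mean level of both alleles lay between 30 and 70% and 0.0443% where it lay under 10%, a range that itself leaves little room for a difference between alleles. These counts rest on the model: limma on the paired differences called 0 positions, with 3191 at an unadjusted p under 0.05 against 3972 in the model. The model pooled dispersion over positions, with 112.5 prior degrees of freedom against 2 from each position. A position's own spread between libraries thus weighed little in its call. Without library 3 the model called 129 positions, without library 2 it called 315, and without library 1 it called 559.

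Neighbouring CpGs and the second strand mostly shared the direction of a called position. Neighbours are often read on the same molecules, so they are not separate evidence, and the share at positions that were not called was not computed. Of the called positions 549 had a measured position of another CpG within 100 bp, and in 396 of these (72.1%) the neighbours' median differed by 10 points or more in the same direction. In 90 of the 549 the neighbours differed by under 5 points. Where the cytosine on the opposite strand of the same CpG was also measured, 98 of 105 shared the direction. In the depleted libraries 523 of 602 called positions (86.9%) had the control direction in both and 11 had the opposite direction in both, while over all positions covered there 13.8% had the control direction in both. That share is no matched baseline, because most positions were under 20% on both alleles and many were equal on both, while the called positions had a median level of 51.4%. Their median difference was 36.8 points in controls and 31.1 in depleted libraries.

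Some positions were nearly unmethylated on 1 allele although their neighbours did not differ between alleles. At 42 called positions 1 allele was under 2% and the other over 50%, 30 of them outside the clusters of called CpGs described later. Of these 30, the paternal *castaneus* allele was the low one at 25, and 19 had 0 methylated calls on the low allele in 3 of 3 libraries. Neighbours were measured for 23 of the 30 and differed by under 10 points for 11. An intergenic position nearest Erg was at 100, 100 and 96.2% mC on the maternal allele and at 0, 0 and 0% on the paternal, with 25 to 52 calls, while the 4 neighbouring positions had a median difference of −2.09 points. Whether the CpG itself is intact in *castaneus* was not tested, since no strain genome was used here.

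At gene starts, the promoters with the largest maternal excess were those of imprinted genes. A promoter was taken as 1 kb on both sides of the gene start and tested with 3 or more positions. Of 4705 promoters 36 were called (0.765%), 22 with the maternal (0.468%) and 14 with the paternal allele higher (0.298%). Some promoters share all their positions: the 4705 held 3879 distinct sets of positions and the 36 held 33. The median size of the difference was 24.4 points among the called and 0.156 over all tested. Without library 1 the count was 63, and limma on the paired differences called 3, which were Snurf, Gm38393 and Ddx20.

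Snurf, which shares its start with Snrpn in the imprinted Prader-Willi domain, was at 97.0, 95.6 and 96.7% mC on the maternal allele and 0, 0.152 and 0.166% on the paternal over 7 positions. The difference was 96.3 ± 0.797 points (SD, n = 3, adjusted p = 7.13e-09). Gm38393 has the same 7 positions, which also lie in the body of Snrpn. Zrsr1, a paternally expressed splicing factor gene that sits inside an intron of Commd1, was at 94.8, 98.0 and 92.7% on the maternal and 0.763, 4.83 and 4.50% on the paternal allele over 9 positions (91.8 ± 3.13, adjusted p = 1.02e-08). Peg13, a noncoding RNA gene expressed from the paternal copy within Trappc9, was at 89.9, 96.7 and 88.3% on the maternal and at 0% on the paternal allele in 3 of 3 libraries (91.6 ± 4.50, adjusted p = 1.87e-06). Its paternal allele had 132 to 182 calls per library, which allows a level of up to 2.27% for counting error only (3 calls). This counts each call as independent, although 1 read can hold several. In all 3 promoters the alleles were far apart in every library, without overlap.

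Methylation at Peg12, a paternally expressed gene of the same domain as Snurf, was partial. Its promoter was at 25.7, 22.7 and 17.99% on the maternal and 0, 0.820 and 0.420% on the paternal allele over 4 positions (21.7 ± 4.06, adjusted p = 0.00291), and with the position of largest difference left out it was at 9.83 points (adjusted p = 0.108). In gene bodies, taken as the gene outside its own promoter, Impact was the next. It is a paternally expressed gene whose product holds back the amino acid sensor kinase GCN2, and its body was at 91.8, 93.9 and 95.9% on the maternal and 11.9, 20.2 and 14.1% on the paternal allele (78.5 ± 4.27, adjusted p = 1.83e-06). The bodies of Commd1 and Gm28048 differed by 91.4 and 44.0 points through the positions of Zrsr1, and that of Trappc9, a subunit of a vesicle tethering complex, by 17.3 ± 6.64 (adjusted p = 0.0188) through the 3 called positions of Peg13. The call for Trappc9 was lost without library 2 (adjusted p = 0.152) and without library 3 (adjusted p = 0.153).

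**Figure D3:**
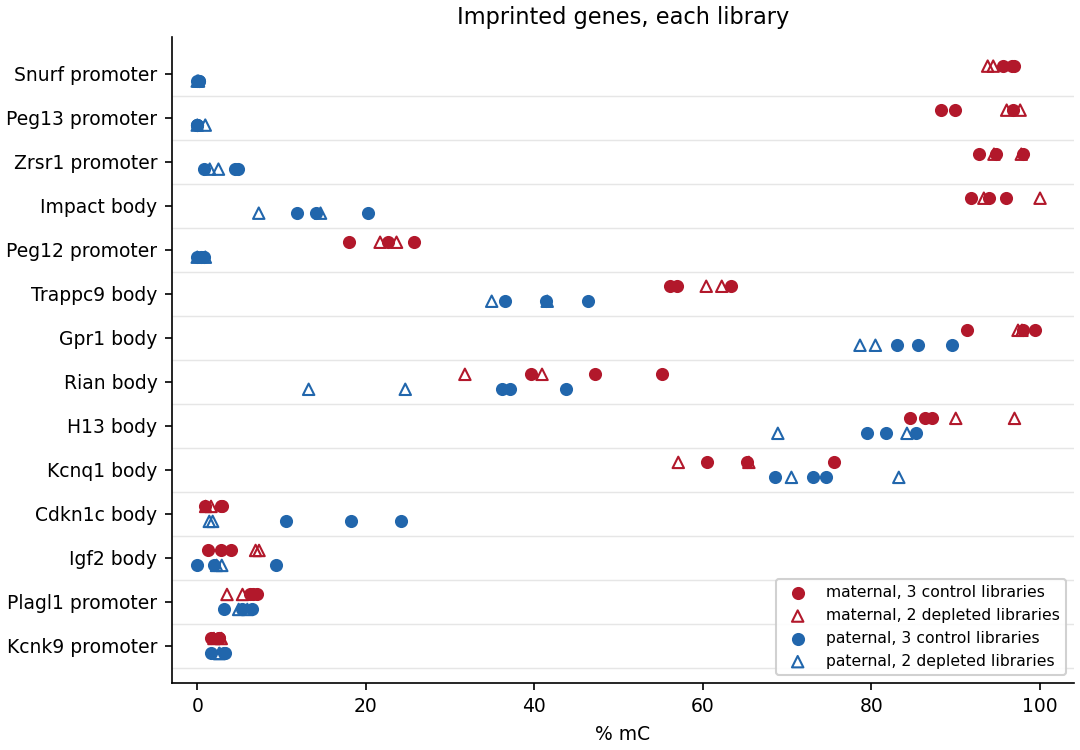
Level of each library (% mC, x axis) at promoters and bodies of 14 imprinted genes, red for the maternal and blue for the paternal allele, filled circles for the 3 control and open triangles for the 2 depleted libraries. At Snurf, Peg13, Zrsr1 and Impact all maternal points lie above 88% and all paternal points below 21%; at Plagl1 and Kcnk9 both alleles lie under 8%.

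Of the imprinted genes with a domain marked on the maternal copy, 7 promoters were tested and 4 were called, all with the maternal allele higher (percent called over all promoters 0.765). The other 3 were Plagl1, given below, and Zfp787 and Zim1, with both alleles under 1.7% mC. For bodies 4 of 8 were called, with the maternal allele higher, where 3.89% of all bodies were called. Snrpn, Commd1 and Trappc9 share called positions with Snurf, Zrsr1 and Peg13, so of these bodies only Impact adds a locus. Of genes with a domain or promoter marked on the paternal copy, 4 bodies and 0 promoters were tested, and 1 body was called with the paternal allele higher. This was Cdkn1c, the maternally expressed inhibitor of cyclin dependent kinases p57, at 2.86, 2.97 and 0.935% on the maternal and 10.6, 18.2 and 24.2% on the paternal allele over 11 positions (−15.4 ± 7.77, adjusted p = 0.00404). The paternal values were above the maternal in every library, but the call was lost without library 2 (adjusted p = 0.0765). Gpr1, taken from the same list, had the maternal allele higher by 10.2 ± 2.07 points in 3 of 3 libraries and was not called (adjusted p = 0.0776). Which copy is marked at its covered positions was not examined. Rian, a noncoding RNA gene of the Dlk1 domain, differed by 8.28 ± 5.01 (adjusted p = 0.254) and Igf2, the paternally expressed growth factor gene, by −1.06 ± 5.25 (adjusted p = 0.680).

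Both alleles had similar levels at the covered positions of several other imprinted genes. The promoter of Plagl1, a growth restraining zinc finger gene, was at 6.25 to 7.05% on the maternal and 3.23 to 6.53% on the paternal allele (adjusted p = 1). At Kcnk9, a potassium channel gene, the range over both alleles was 1.65 to 3.29%. Ascl2, Nap1l4 and Ago2 promoters were under 3.1% on both alleles. The bodies of H13, Kcnq1, Phactr2, Cdh15 and Usp29 were between 37.1 and 96.3% on both alleles and differed by −5.00 to 3.84 points, none called. With a coverage minimum of more than 10 calls Cdh15 differed by 26.7 points and was called (adjusted p = 0.00660). Of imprinted genes of the remaining list, 0 of 4 promoters and 0 of 2 bodies were called, beside 0.765% of all promoters and 3.89% of all bodies. The covered positions of these genes need not lie in the imprinted region of the gene.

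Outside known imprinted genes, no called promoter differed by as much as Snurf, Zrsr1 or Peg13, but several differed by more than Peg12. Arrdc1, an arrestin family gene, was at 95.3, 86.8 and 92.9% on the maternal and 44.7, 50 and 41.1% on the paternal allele (46.4 ± 8.30, adjusted p = 0.00104). The noncoding RNA promoters Gm49736, Gm2511 and 9530026F06Rik followed at 34.01, 28.3 and 25.7 points, and Gm7879 was at 26.9 points but at 5.17 without the position of largest difference. The call for 9530026F06Rik was close to the threshold (adjusted p = 0.0451) and was lost under 7 of 16 alternatives, with 21.5 to 30.7 points over all of them. Among the promoters with the paternal allele higher, Minos1, for a protein that shapes the inner mitochondrial membrane, was at 0.469, 3.96 and 0% on the maternal and 60.3, 48.0 and 59.9% on the paternal allele (−54.6 ± 9.11, adjusted p = 3.44e-04). Acat3, an acetyl-CoA acetyltransferase gene, was at 7.14, 5.30 and 10.4% against 62.8, 61.2 and 49.6% (−50.3 ± 9.597, adjusted p = 0.00113). For Minos1 and Acat3, measured at 4 and 3 positions, every paternal library lay far above every maternal one. Those of Minos1 were 2 CpGs within 9 bp and those of Acat3 lay within 41 bp, so neither stands for a whole promoter. Smim11, 1700048O20Rik with the overlapping Gm49343, Gm47733, Atp6v1g2, Gm14508 and Gm45623 differed by −37.4 to −26.4 points. Without library 3 the calls of Gm2511, Gm7879, Smim11, Gm47733, Atp6v1g2, Gm14508 and Gm45623 were lost, and without library 2 that of Gm14508, whose adjusted p was 0.0486 and whose call was lost under 10 of 15 alternatives. Without the position of largest difference, Gm2511, Smim11, Gm47733, Atp6v1g2, Gm14508 and Gm45623 also lost their calls, with values from −27.9 to −18.8 points where the paternal allele was higher and 26.5 for Gm2511.

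Of 3113 bodies 121 were called (3.89%), 57 with the maternal (1.83%) and 64 with the paternal allele higher (2.06%), and all 121 had the same direction in 3 of 3 libraries. Which direction held more bodies was not stable: it was the maternal, by 32 to 24, without library 1, by 12 to 8 without library 2 and by 16 to 15 without library 3. The median size of the difference was 15.3 points among the called and 1.99 over all tested, and 38 were 20 points or more. The 3113 bodies held 3006 distinct sets of positions and the 121 held 106. A value stands only for the covered positions of a body, which can lie in 1 short stretch. Lrrc61, which encodes a leucine rich repeat protein, was at 29.1, 40.6 and 26.9% on the maternal and 88.3, 85.7 and 89.6% on the paternal allele (−55.7 ± 9.33, adjusted p = 1.94e-04). Its alleles did not overlap, with 4 of 4 positions called, at 3 CpGs within 88 bp. Cdh24, a cadherin gene, was at 33.3, 84.0 and 32.0% against 93.0, 98.1 and 91.2% (−44.4 ± 26.2, adjusted p = 6.37e-04), so that maternal library 2 lay close to the paternal values. Without library 2 its difference was −59.5 points.

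Further bodies with the paternal allele higher were those of Trmt9b, a tRNA methyltransferase family gene, Pawr, a proapoptotic gene, Ccdc30, Cldn14, a tight junction gene, Grp, for gastrin-releasing peptide, Nfkbil1 and Sash1, by −43.4 to −27.97 points. With the maternal allele higher were Gm43691, Pphln1, which encodes a subunit of the silencing complex HUSH, Kri1, Sytl1, Zfp777 and Rhof, a small GTPase gene, by 26.1 to 44.7 points. Rhof had 15 positions and was at 63.3, 64.6 and 68.8% on the maternal and 36.9, 39.7 and 41.7% on the paternal allele (26.1 ± 1.11, adjusted p = 1.94e-04), the narrowest spread between libraries in that group. Trmt9b had only 3 positions, all within 32 bp of an exon. Left without their position of largest difference, Pphln1 was at 4.85 points and Kri1 at 0.580. Grp, Ccdc30, Cldn14 and Nfkbil1 also lost their calls then, at −27.6 to −24.5 points, and Cldn14 was at −10.5 with more than 10 calls as the coverage minimum (adjusted p = 0.317). The number of called bodies was 56 without library 1, 20 without library 2 and 31 without library 3, against 63, 41 and 28 of 4705 promoters, so that bodies were called at the lower rate without library 2. Limma on the paired differences called 4, which were Snrpn, Commd1, Gm28048 and Gm43691. Without library 2 the calls of Grp, Ccdc30, Cldn14, Kri1, Nfkbil1, Pawr, Sash1 and Zfp777 were lost, without library 3 those of Grp, Ccdc30, Nfkbil1, Sash1 and Sytl1, and without library 1 those of Cldn14 and Kri1.

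Counts of calls in other gene groups were small and were not tested against the share over all promoters or bodies. Promoters of genes for DNA methylation and imprint maintenance gave 0 of 8, germline genes 0 of 5, Hox genes 0 of 6, zinc finger genes 0 of 81 and collagen genes 0 of 16, beside 0.765% of all promoters. For bodies the counts were 0 of 7, 1 of 7, 0 of 8, 2 of 45 and 0 of 16, beside 3.89% of all bodies. Median differences in these lists lay between −3.29 points, for germline bodies, and 1.07 points, for collagen bodies. The germline gene was Tdrd6, a tudor domain gene of male germ cells, at 53.0, 64.5 and 61.8% on the maternal and 82.2, 83.1 and 84.7% on the paternal allele over 13 positions (−23.6 ± 5.32, adjusted p = 0.00103). Its depleted libraries were at 62.1 and 64.6% against 80.6 and 81.9%. The zinc finger bodies were Zfp777, with the maternal allele higher, and Zfp407, with the paternal allele higher (a difference of −7.87 points).

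Called positions also formed clusters, at imprinted genes and elsewhere. Joining called positions of the same direction at most 200 bp apart gave 39 blocks of 3 or more positions at 2 or more CpGs, 23 with the maternal and 16 with the paternal allele higher, each 9 to 253 bp long and 191 called positions in all. Because blocks were built from called positions, their differences are given as descriptions. A difference of 80 points or more was found in 3 blocks, at Snurf, Zrsr1 and Impact, and of 50 points or more in 13. Of the 32 blocks covered in the depleted libraries, 31 had the control direction in both. Of the 39 blocks 12 lay within 1 kb of a gene start, beside 139 of the 701 called positions and 35863 of all 66512 positions.

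The block nearest Cript, 16201 bp from the closest gene start, was the largest outside imprinted genes. It was at 74.6, 81.7 and 80.7% on the maternal and 8.83, 11.2 and 5.59% on the paternal allele over 9 positions, with 81.0 and 80.3% against 2.85 and 9.17% in the depleted libraries. No library of 1 allele came near the range of the second allele. In the Igsf11 intron, of a gene for an adhesion molecule of the immunoglobulin superfamily, the 6 positions were at 94.4, 90.9 and 89.2% against 37.9, 39.1 and 44.8%. An intergenic block nearest Gria4 was at 58.3, 79.6 and 72.6% against 17.3, 13.7 and 18.3%, and has another copy of 96.1% identity inside Tfdp1. An exonic block of Pstpip2, an adaptor protein gene, had the paternal allele higher, at 47.0, 35.1 and 31.0% against 94.5, 87.1 and 87.7%.

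Single reads showed whether a level was shared by all molecules of an allele. Among reads with 3 or more calls, in the 3 control libraries together, 77.4% of maternal reads at Snurf were methylated at every call, and 99.2% of paternal reads at none. At Zrsr1 these shares were 82.4% and 90.6%, and at Impact 75.4% and 95.1%. At Cript 39.8% of maternal reads were methylated at every call and 58.0% at some, while 73.4% of paternal reads were methylated at none. At Igsf11 the paternal reads were mixed, with 65.4% methylated at some calls, 24.3% at none and 10.3% at all. These 3 imprinted blocks held mostly uniform reads on both alleles, and Cript and Igsf11 held more mixed ones. Levels near either end of the scale leave little room for mixed reads, and so do few calls per read. The shares expected from level alone were not computed, so these shares do not compare agreement along reads between blocks. Uniform reads were not particular to imprinted blocks. At the block in Nadk 7.41% of maternal and 0% of paternal reads were methylated at some calls only, against 22.6% and 0.766% at Snurf. At the block nearest Gm11730 these shares were 50.8% and 84.1%.

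In 8 blocks the lower allele was under 1% mC and the higher allele under 60%. They were Cables2, Ddx20, Nadk, M6pr, Psmb1 and Ostf1, with the maternal allele higher, and Magohb and Pdlim1, with the paternal allele higher. Ddx20, for a helicase of the complex that assembles spliceosomal particles, was at 22.2, 21.8 and 21.2% on the maternal and 0% on the paternal allele. Its 622 to 665 paternal calls allow up to 0.482% if each call is counted as independent. They came from only 103, 95 and 101 reads, so the limit per molecule is wider. Magohb, a subunit gene of the exon junction complex, was at 0, 1.07 and 0% on the maternal and 27.4, 35.1 and 37.8% on the paternal allele. Pdlim1, for a protein that links kinases to the actin cytoskeleton, was at 0% on the maternal and 59.0, 47.7 and 44.5% on the paternal allele. The alleles did not overlap in any library of these blocks.

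These blocks also differed from the rest in the number of reads. In 7 of the 8, all but Nadk, the more methylated allele had 1.49 to 1.83 times the reads of the other, where the median of the other 31 blocks was 0.795. At Ddx20 the maternal allele had 144, 202 and 120 reads and the paternal 103, 95 and 101, and 103, 134 and 86 of the maternal reads had under 50% of their calls methylated. At Pdlim1 the paternal allele had 81, 81 and 94 reads, 33, 40 and 51 of them under 50% methylated, and the maternal 53, 35 and 52. Over the 7 blocks, the weakly methylated reads of the higher allele numbered 0.886 to 1.13 times those of the lower allele. In the other 31 blocks that ratio was 0 to 0.652, and only the block nearest 1700109I08Rik, in a repeat with 16081 other copies, also had over 1.4 times the reads on its higher allele (2.41). Single libraries varied: at M6pr control library 3 had 62 maternal and 63 paternal reads. In the depleted libraries the higher allele of the 7 blocks also had more reads, at Ostf1 112 and 121 maternal against 80 and 113 paternal. The limit of 1.4 times the reads that separated the 7 was chosen after the values were seen. This limit and those on the levels of both alleles in part fix the ratio of weakly methylated reads. That ratio is thus no separate evidence on the 7 blocks. Minos1 fell outside the 8 with its lower allele at 1.70% mC and its higher allele at 58.1%. It had 0.690 times the reads on its higher allele and a ratio of weakly methylated reads of 0.283.

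Another copy of the sequence was found in the reference for 5 of the 8 blocks picked by level, against 4 of the other 31. All 5 were among the 7 with more reads on the higher allele. Those 4 included the imprinted block at Impact, with a copy of 83.1% identity over 71 bp inside the same gene. Copies were searched with 100 bp on both sides of the block, at 80% identity or more over at least 60 bp. For Cables2 the closest copy was the processed pseudogene Gm6190 on chromosome 12, 95.7% identical over 234 bp, and the 60 bp printed above differ at 3 bases. For Pdlim1 it was the processed pseudogene Gm5864 on chromosome 5 (94.8% over 153 bp), for Psmb1 Gm14830 on the X (90.8% over 130 bp), for M6pr a stretch of chromosome 3 with no annotated gene (95% over 260 bp) and for Ostf1 a stretch of chromosome 19 (91.8% over 195 bp). No copy met these limits for Ddx20, Magohb and Nadk. The values of all 7 blocks, Ddx20 and Magohb included, are treated as uncertain here because of their surplus of reads on the more methylated allele. Whether reads of a copy entered them was not tested, and copies present only in 129 or CAST were not searched.

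**Figure D4:**
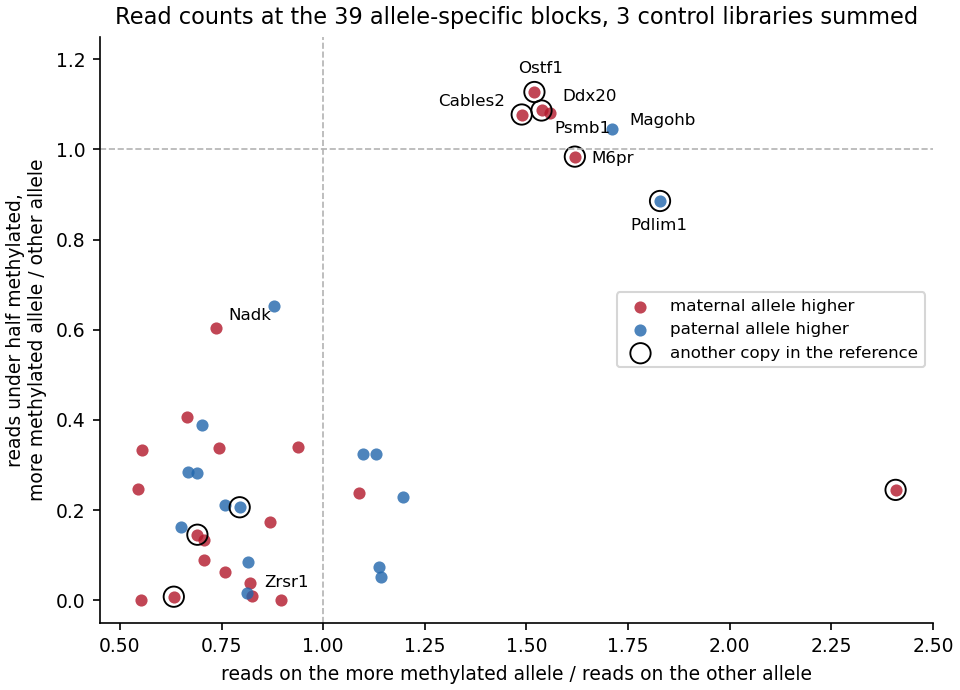
For each of the 39 blocks, the reads of the more methylated allele divided by those of the other (x axis), and the reads of the more methylated allele with under 50% of calls methylated divided by all weakly methylated reads of the other (y axis), 3 control libraries summed; red points are blocks with the maternal and blue points with the paternal allele higher, and rings mark blocks with another copy in the reference. The 7 blocks at the top right, from 1.49 to 1.83 on the x axis, lie near 1 on the y axis, and Zrsr1 lies near 0. The limits on level and reads that picked the 7 in part fix where they lie.

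Between libraries, the maternal allele held more extreme differences than the paternal. A range over the 3 control libraries of 30 points or more was found at 2136 positions on the maternal and 2082 on the paternal allele. At 50 points or more the counts were 188 and 132, at 60 points 92 and 16, and at 70 points 55 and 1. At the 55 maternal positions the lowest library was under 5% mC in 42, and the median range of the paternal allele at the same positions was 11.8 points. An intronic position of Fbxw7, a ubiquitin ligase gene, was at 87.9, 0 and 85.5% on the maternal and 87.5, 84.6 and 83.8% on the paternal allele. An exonic position of Scaf1 was at 97.9, 100 and 6.82% against 94.9, 93.0 and 100%. The library that stood apart was mostly lower than the others (44 of 55) and was library 1 at 17, library 2 at 11 and library 3 at 27 positions.

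These positions lay on 15 chromosomes, and neighbours on a chromosome often had the same library apart. On chromosome 6 it was library 1 at 6 of 6, on chromosome 7 library 3 at 10 of 10 and on chromosome 19 library 2 at 3 of 3 positions. The block nearest Gm44718 on chromosome 7 was of this kind, at 90.2, 91.0 and 3.74% on the maternal and 21.1, 13.6 and 10.8% on the paternal allele, with 88.9 and 87.3% maternal in the depleted libraries. The position of Usp29 nearest Zim3, at 95.1, 94.7 and 0% maternal, and those of Cdh24 at 0, 90.5 and 2.04% were others. The depleted libraries were 70 points or more apart at 23 positions on the maternal and 2 on the paternal allele. Which maternal strain a library carried at a position was not tested.

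**Figure D5:**
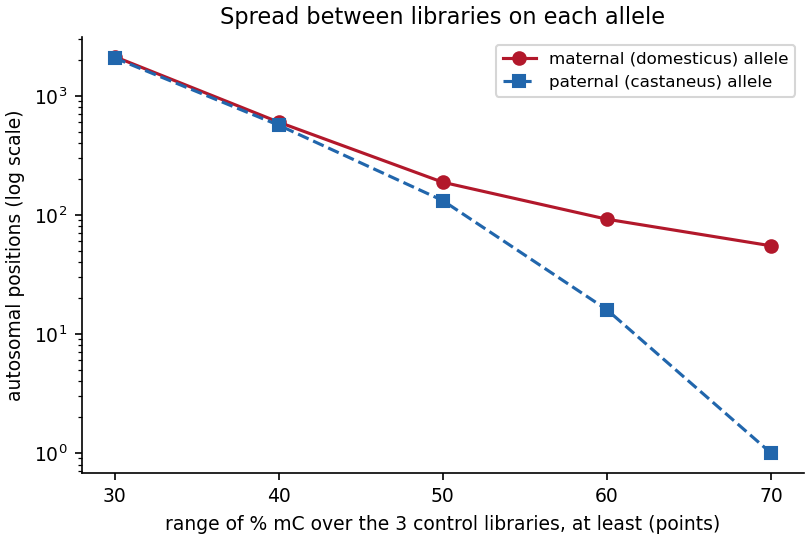
Number of autosomal positions (y axis, log scale) whose % mC ranged over the 3 control libraries by at least the points on the x axis, for the maternal (red circles) and the paternal allele (blue squares). The counts are alike at 30 points, 2136 and 2082, and part to 55 and 1 at 70 points.

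Setdb1 depleted libraries gave no allele difference that was shown to differ from the controls. An allele by group term over 7084 promoters and bodies called 0 at an adjusted p under 0.05, with 200 at an unadjusted p under 0.05, and limma on the paired differences also called 0, with 360 unadjusted. The promoters called in controls had the control direction in both depleted libraries in 29 of 33 covered, and the bodies in 102 of 110. The share over all promoters and bodies tested was not computed. Snurf was at 94.4 and 93.8% on the maternal and 0.151 and 0% on the paternal allele. Among the genes called in controls, Pawr and Cdkn1c, chosen here after their values were seen, differed little between alleles in depleted libraries. The Pawr alleles were at 65.2 and 61.9% against 65.2 and 64.8% in depleted libraries, a mean difference of −1.44 points where controls had −34.8 (adjusted p = 1). Those of Cdkn1c were at 1.63 and 0.996% against 1.83 and 1.43%, −0.315 where controls had −15.4 (adjusted p = 1). With 3 and 2 libraries these differences between groups were not past the threshold.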

How the data were processed

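Allele-resolved CpG methylation was read by eRRBS in 5 libraries, 3 Female control and 2 Setdb1 depleted, grouped by their labels. Per the methods, single-end reads from dark-cycle runs were adapter trimmed and mapped by Bismark to an mm10 genome whose strain differences were masked. Terminal bases of reads were ignored, and SNPsplit assigned reads to alleles without C/T differences. CASAVA 1.4, Trim Galore and Bismark are named in the submitters' processing notes. The deposited values, made by the authors, are single methylation calls, 1 CpG of 1 read per line, written by Bismark's extractor (file headers give version 0.13.0), with no normalisation or coverage filter. Removal of PCR duplicates is not stated, so reads need not be independent molecules, and 1 read can hold several calls. Limits for a count of 0 treat calls as independent and cover counting error only.

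Calls were summed per position, allele and library and set against GRCm38 with GENCODE M21 (30233 autosomal coding and long noncoding genes). For a promoter or body with at least 3 positions, each position was weighted to the lower of its allele depths. Differences were tested with a quasi-binomial logistic model with a library block, whose dispersion was moderated by limma 3.58.1 (R 4.3.3) with a prior from features with at least 5 expected calls of each kind and a floor of 1, and Benjamini-Hochberg adjustment at 0.05. Both alleles of a library come from 1 DNA sample, which pairs them; their deviations from the allele means correlated at r = 0.0447, 0.0630 and 0.126 over positions of 30 to 70% mC. Reads marked by the sequencer's filter (5.34 to 5.66% of control calls) were kept. Copies were searched with BLASTN 2.17.0. Tables and plots were made in Python 3.11.15 (pandas 2.3.3, numpy 2.4.6, matplotlib 3.10.9, scipy 1.17.1).

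Genes were named by rule, as the 10 promoters and bodies with the largest difference in each direction among those called with the same sign in 3 of 3 libraries, plus covered imprinted genes. Other genes and positions were chosen after their values were seen. The comparison, members and lists were chosen with earlier results of these data known. Alternatives covered depth, libraries, reads, repeats, weighting, feature size and test.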

Additional observations from a re-analysis of the deposited data

How the results depend on the processing

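The genome-wide difference was 0.00245 to 0.0387 points with each library left out and −0.0180 ± 0.0703 with calls pooled over positions, within the spread between libraries, and 0.0539 ± 0.0316 with more than 40 calls (3 of 3 libraries above 0). Depth changed the counts: with more than 10 calls 72 promoters and 81 of 3975 bodies were called (45 with the maternal and 36 with the paternal allele higher), and with more than 40 calls 228 of 24923 positions and 25 of 1164 bodies. With each library left out in turn, 129 to 559 positions, 28 to 63 promoters and 20 to 56 bodies were called; without library 3 the maternal allele was higher at 69.8% of called positions instead of 52.9%. Fisher's exact test on calls pooled over libraries, which does not use the spread between them, called 5333 positions, 280 promoters and 762 bodies, and limma on paired differences 0, 3 and 4. With at least 10 positions per feature 9 of 1692 promoters and 75 of 738 bodies were called, and with the position of largest difference left out 28 bodies.

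Without the pairing of alleles within a library (no replicate block), 538 positions, 46 promoters and 51 bodies were called, 27 bodies with the maternal and 24 with the paternal allele higher. Of the 43 named called promoters and bodies, 7 stayed past the threshold under every alternative that gave a value, and none turned its direction. The 7 are not separate loci. They were Snurf, Gm38393 and Snrpn, which share positions, Commd1 and Gm28048, which differ through those of Zrsr1, Gm43691, and Ddx20, whose values are treated as uncertain above. The test for a change after depletion called 0 under each of its 7 alternatives, with 136 to 360 at an unadjusted p under 0.05. Its lowest adjusted p was 1 to begin with, and leaving out a depleted library leaves 1, assumed to vary like the controls, so these counts of 0 say little. With a median of 50 to 52 calls per position, the smallest difference called at a single position was 9.92 points.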
